A study of Homo sapiens with 3 samples.

Results

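Interferon-stimulated genes are genes whose transcription rises when a cell senses interferon. A list of 43 of them was followed here in HT29, an established cell line grown from a human colorectal cancer, after treatment with a derivative of the small molecule linderapyrone. The members were found by gene symbol in the annotation of the array. The array carried 47 probes for 40 of the 43, out of 18639 genes in all. STAT2, IFITM2 and IFITM3 had no probe under their symbols in that annotation and were not analysed here. HT29 cells were kept for 24 h in medium with DMSO, the solvent, or with the derivative at 5 or 20 µM, and the total RNA of each culture was labelled with Cy5 and hybridised to 1 array per group, 3 arrays in all. The sample titles write the doses in mM, the treatment labels and descriptions in µM, and µM was used. The design sets the treated cells against the DMSO cells to find genes that differ. The labels name no genotype, clone or second agent for any group.

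In the textbook pathway, type I interferons bind the receptor chains IFNAR1 and IFNAR2, and type III interferons bind IFNLR1 with IL10RB. The kinases JAK1 and TYK2 then activate a complex that holds STAT2 and IRF9 and binds the interferon-stimulated response element (ISRE) in the promoters of target genes. Interferon gamma acts through another element, the gamma-activated site (GAS). The products restrict viruses by degrading, trapping or marking viral RNA and protein. Epithelial cells of the gut respond to type III interferon in particular.

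All 40 members were detected on the 3 arrays, that is, above the mean plus 2 SD of each array's blank spots. So were 15920 of all 18639 genes, so detection does not set the members apart. The threshold is lenient, and some positions without a probe pass it too. On the DMSO array the threshold was 82.5 and the highest such position 134. The 5 µM array had 79.4 and 101, the 20 µM array 80.2 and 224. In the deposited spot signals, before any normalization, 29 of the 40 were brightest on the 20 µM array and 39 were dimmest on the 5 µM array. Over the 15920 genes detected on every array, 18.0% were brightest at 20 µM and 74.3% dimmest at 5 µM. The 5 µM array was dimmer as a whole, with a median signal of 107 against 117 in DMSO and 110 at 20 µM, so the arrays were normalized before they were compared. The ratios below are log2 ratios of normalized signal plus an offset of 50, which understate the differences of dim genes. With 1 array per group there was no replicate, no test was possible, and the variation from culture to culture was not measured. What could be measured was a technical spread, between probes of the same gene, over genes with 2 detected ones. Per log2 ratio it came to an SD of 0.14 for 20 µM against DMSO, 0.11 for 5 µM against DMSO and 0.12 for 20 against 5 µM. This SD pools dim and bright genes. Of the 16062 genes compared at 20 µM, 8784 had DMSO signals within 2-fold of the detection threshold, against 3 of the 40 members. The offset narrows the ratios of dim genes, so the SD may be too small for most members.

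The label of the cells was checked against markers. The epithelial marker EPCAM gave signals of 9660, 6213 and 7149 on the DMSO, 5 µM and 20 µM arrays. The intestinal genes CDX2 and CDH17 were dim, with DMSO signals of 92.6 and 88.6 against a detection threshold of 82.5. Of the 12 blood and immune markers on the array, PTPRC, carried by white blood cells, and the B cell gene MS4A1 were detected on 0 arrays, and the other 10 were detected on 2 or 3. That list had median log2 ratios of -0.0047 for 20 µM against DMSO, -0.0063 for 5 µM against DMSO and 0.014 for 20 against 5 µM. Of the detected ones, LYZ, a lysozyme gene, had signals of 15819 in DMSO, of 12100 at 5 µM and of 12204 at 20 µM, and the B cell gene CD79A of 365, 320 and 350. ITGAX and CD14, of myeloid cells, had DMSO signals of 184 and 146. Of 10 fibroblast and endothelial markers, COL1A1, COL1A2 and PECAM1 were detected on 0 arrays. The other 7 were detected on all 3, among them DCN, PDGFRB and KDR with DMSO signals of 231, 148 and 131, and the list had medians of 0.022, -0.0091 and -0.034. Epithelial markers moved both ways at 20 µM: KRT20 had a ratio of 0.92 and LGALS4 of 0.54, EPCAM of -0.23 and VIL1 of -0.48, and their part in the results below was not tested. RNA of a whole culture was measured, so more transcript per cell and more cells with the transcript cannot be told apart.

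Relative to DMSO, the interferon-stimulated genes were mostly higher at 20 µM and, as processed here, slightly lower at 5 µM, and nearly all were higher at 20 than at 5 µM. At 20 µM, 33 of the 40 members had log2 ratios above 0, against 52.8% of the 16062 genes compared, and their median was 0.47, against 0.0071 over all genes. The members were chosen with earlier results of these data known, so this contrast with all genes is not an independent one. The share of all genes at least 1.5-fold higher was 1.94%, and 15 members were in it. IFI44L and MX2 were the 2 members at least 2-fold higher, against 0.442% of all genes, and 0 members were at least 2-fold lower, against 0.324%, or at least 1.5-fold lower, against 1.84%. The members ranged from -0.49 for IFIT3 to 1.19 for IFI44L. Shares past a fold, here and below, are over all genes, among them many dim ones whose ratios the offset narrows. In DMSO, 7278 genes had a signal above 2 times the detection threshold. Of these, 48.9% were above 0 at 20 µM, as were 30 of the 37 members among them.

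At 5 µM against DMSO, 10 of the 40 members had ratios above 0, against 52% of 16075 genes, with a median of -0.16 against 0.0043. The shifts at this dose were small: 0 members were at least 1.5-fold higher, against 0.386% of all genes, and IFIT3 was the 1 member at least 1.5-fold lower, against 0.0871%. Neither direction held a member at least 2-fold apart, against 0.0498% of all genes higher and 0.00622% lower. The members lay between -0.90 for IFIT3 and 0.23 for PML. The direction and size of this shift depended on the processing. With the background column of the scanner files, which follows the spot signal, the median was 0.045 and 21 of the 40 were above 0. Under median scaling the members' median was -0.32, but that scaling also put genes of their brightness lower. The 7278 genes with a DMSO signal above 2 times the detection threshold then had a median of -0.17, and the 37 members among them one of -0.37.

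At 20 against 5 µM, 39 of the 40 members had ratios above 0, against 49.5% of 16036 genes, and the exception was PML. The median was 0.58, against -0.0011 over all genes. Of the members, 20 were at least 1.5-fold higher, against 0.917% of all genes, and 6 were at least 2-fold higher, against 0.131%. These 6 were MX2 at 2.38-fold, UBE2L6 at 2.27-fold, IFI44L at 2.22-fold, TRIM22 at 2.21-fold, EPSTI1 at 2.10-fold and RSAD2 at 2.06-fold. No member was at least 1.5-fold lower, where 0.886% of all genes were, or at least 2-fold lower, where 0.0935% were. The comparisons share arrays, so they do not support each other: both doses were set against the same DMSO array, and both treated arrays return in the comparison of doses. Side by side, 23 members were below DMSO at 5 µM and above it at 20 µM, 10 were above it at both doses and 7 below it at both. The first of these patterns was shown by 13.9% of all genes detected on the 3 arrays. The patterns count signs alone, and many ratios at 5 µM were small, within 2 technical SD of 0. So were the 20 µM ratios of the 7 members below DMSO at both doses, except those of IFIT3 and IRF1. For 8 members the sign at 5 µM turned with the processing, as given below.

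**Figure D1:**
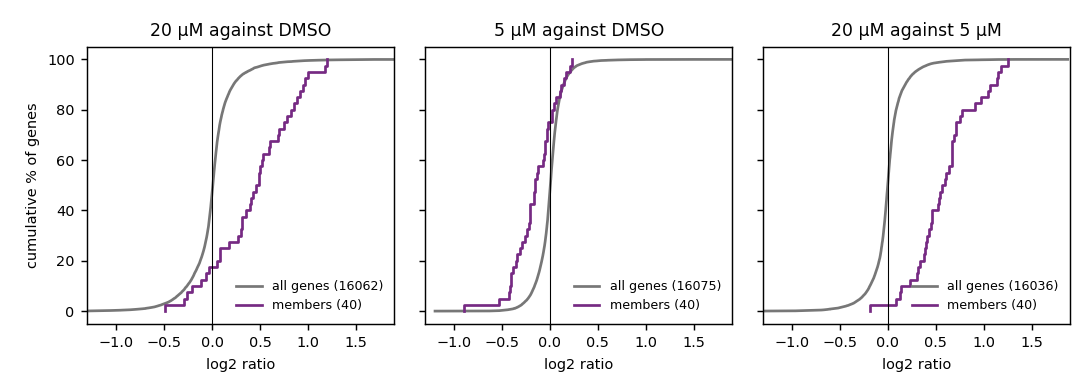
Cumulative share of genes (vertical axis, %) with a log2 ratio up to the value on the horizontal axis, for the 40 members and for all genes detected on both arrays, in each of the 3 comparisons. The members' curve lies to the right of that of all genes at 20 µM (medians 0.47 and 0.0071) and for 20 against 5 µM (0.58 and -0.0011), and to its left at 5 µM (-0.16 and 0.0043).

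Among the transcription factors of the response the shifts were small. IRF7, the inducible factor that drives further interferon transcription, had ratios of 0.39 at 20 µM and -0.034 at 5 µM against DMSO. IRF9, the DNA-binding partner of STAT2, stood at 0.077 and -0.049. IRF1, a factor induced by interferon gamma and other cytokines, had signals of 744 in DMSO, of 448 at 5 µM and of 538 at 20 µM. It was highest in DMSO, and its ratios were -0.29 at 20 µM and -0.42 at 5 µM. Between the doses the 3 factors differed by 0.43, 0.13 and 0.13.

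The ISG15 system attaches the ubiquitin-like protein ISG15 to other proteins, and all 5 of its members were above DMSO at 20 µM. HERC5, the main ligase of this system, had signals of 287 in DMSO, of 243 at 5 µM and of 491 at 20 µM. It was high on the 20 µM array alone, with a ratio of 0.998, just short of 2-fold. UBE2L6, the conjugating enzyme, had signals of 1121, 704 and 1738 in the same order. It was lowest at 5 µM and highest at 20 µM, with ratios of -0.36 and 0.82 to DMSO. ISG15 itself stood at -0.29 at 5 µM and 0.31 at 20 µM, and USP18, which removes ISG15 and restrains the interferon receptor, at -0.21 and 0.43. HERC6, a relative of HERC5, stood at -0.018 and 0.36. For 20 against 5 µM, 4 of the 5 were at least 1.5-fold higher, all but HERC6.

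The sensors and synthases of the antiviral RNA response were also above DMSO at 20 µM. OAS1, OAS2 and OAS3 make short oligoadenylates that switch on the nuclease RNase L, and OASL is a related protein without that activity. Their ratios at 20 µM were 0.50, 0.61, 0.27 and 0.48. At 5 µM OAS3 stood at -0.40, and the other members of the family lay between -0.066 and 0.021. The helicase gene IFIH1, which encodes the sensor of long double-stranded RNA MDA5, had ratios of -0.16 at 5 µM and 0.30 at 20 µM, and DDX60 of -0.035 and 0.52. All 6 were higher at 20 than at 5 µM, by 0.46 to 0.67.

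The IFIT family, whose proteins bind viral RNA and block its translation, had 3 of its 4 members below DMSO at 20 µM and all 4 at 5 µM. IFIT3 had signals of 2227 in DMSO, of 939 at 5 µM and of 1371 at 20 µM. It was highest in DMSO, 1.86-fold lower at 5 µM and 1.40-fold lower at 20 µM. IFIT2, a partner of IFIT3, had signals of 770, 434 and 590, with ratios of -0.53 at 5 µM and -0.21 at 20 µM. IFIT5 had signals of 316, 206 and 274, with ratios of -0.40 and -0.068. At 20 µM the ratio of IFIT5 lay within the technical SD of 0.14, and that of IFIT2 within 2 technical SD of 0. The signals of all of these were highest in DMSO and lowest at 5 µM. The arrays as a whole had the same order, with median signals of 117, 107 and 110. The share of all genes with that order was not counted, so it is not particular to this family. IFIT1, which recognises the caps of foreign RNA, was the exception, at -0.24 and 0.51. All 4 genes were higher at 20 than at 5 µM, by 0.75 for IFIT1, 0.41 for IFIT3, 0.33 for IFIT5 and 0.31 for IFIT2.

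**Figure D2:**
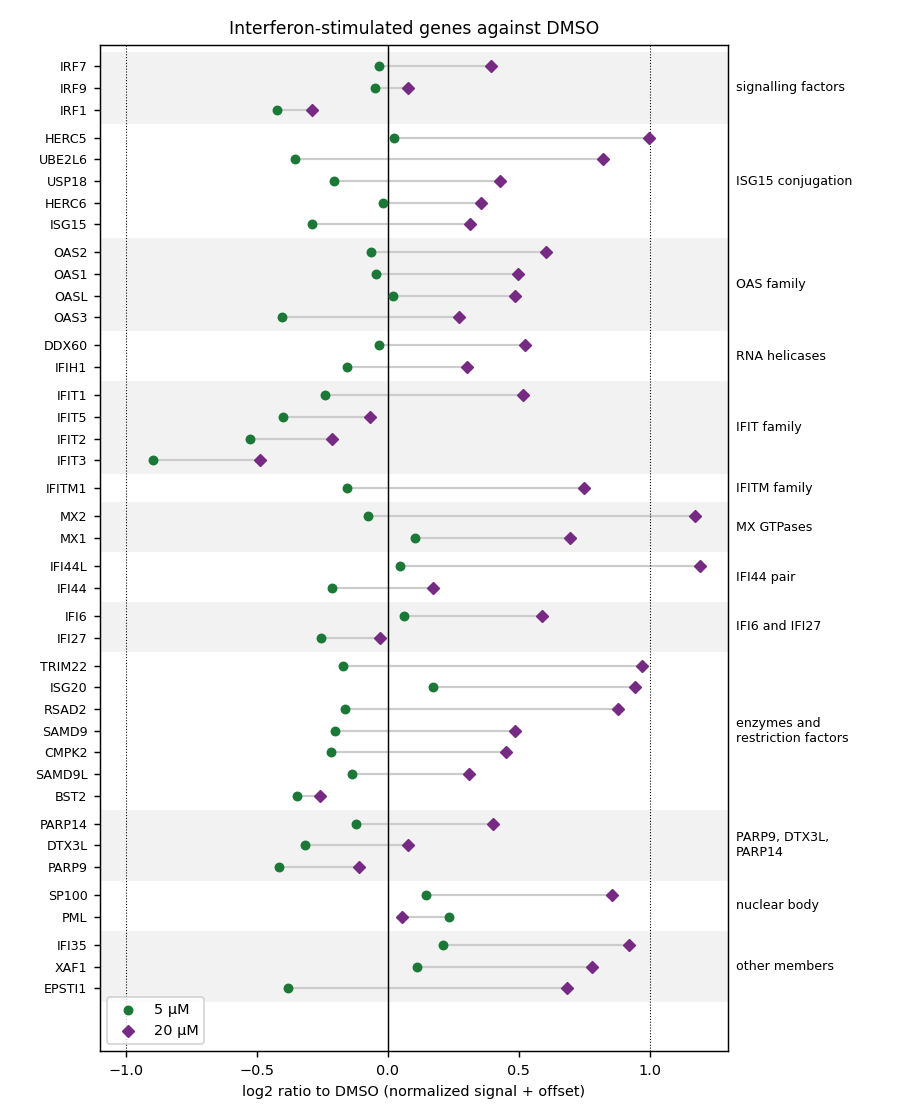
Log2 ratio to DMSO (horizontal axis) of each of the 40 members at 5 µM (green circles) and 20 µM (purple diamonds), 1 array per group, grouped by role; dotted lines mark a 2-fold difference. The purple diamond lies to the right of the green circle for every member except PML, and IFI44L and MX2 pass the 2-fold line at 20 µM.

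MX1 and MX2 are dynamin-like GTPases that trap viral components. MX2 had signals of 712 in DMSO, of 544 at 5 µM and of 1386 at 20 µM. The 20 µM array stood alone at the top, 2.26-fold above DMSO, while 5 µM was 1.05-fold below it. MX1 had ratios of 0.10 at 5 µM and 0.70 at 20 µM. IFI44L, a gene of the interferon response whose protein is less well understood, had signals of 1735, 1361 and 3447 and was 2.29-fold above DMSO at 20 µM. Its neighbour IFI44 stood at -0.21 at 5 µM and 0.17 at 20 µM.

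Several enzymes and restriction factors were among the members farthest above DMSO. TRIM22, a ubiquitin ligase, had signals of 160 in DMSO, of 129 at 5 µM and of 268 at 20 µM, and a ratio of 0.97 at 20 µM. ISG20, an RNA exonuclease, had signals of 742, 662 and 1238, and a ratio of 0.94. RSAD2, which encodes viperin, the maker of a chain-terminating nucleotide, had signals of 353, 264 and 566, and a ratio of 0.88. In each of these genes the DMSO and 5 µM arrays were near each other, with 5 µM ratios of -0.17, 0.17 and -0.16, and the 20 µM array was high. CMPK2, a nucleotide kinase that lies next to RSAD2 in the genome, had ratios of -0.22 at 5 µM and 0.45 at 20 µM. SAMD9 stood at -0.20 and 0.49, and SAMD9L at -0.14 and 0.31. BST2, which encodes tetherin, the protein that holds budding virus at the cell surface, went the other way. Its signals were 6323, 3828 and 4549, highest in DMSO, with ratios of -0.35 at 5 µM and -0.26 at 20 µM and a difference of 0.087 between the doses, within the technical SD.

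IFITM1, a membrane protein that hinders virus entry, had ratios of -0.16 at 5 µM and 0.75 at 20 µM. IFI6, a small membrane protein, stood at 0.062 and 0.59. IFI27 had signals of 19790 in DMSO, of 12579 at 5 µM and of 17190 at 20 µM. DMSO was the highest of the 3 arrays before normalization, and after it the ratio was -0.030 at 20 µM and -0.26 at 5 µM.

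PARP9 and DTX3L form a complex that ADP-ribosylates and ubiquitylates proteins, and PARP14 is a related transferase. PARP9 had signals of 1645, 965 and 1318, lowest at 5 µM, with ratios of -0.42 at 5 µM and -0.11 at 20 µM. DTX3L stood at -0.32 and 0.078, and PARP14 at -0.12 and 0.40. Of the nuclear body genes, SP100 had signals of 1294, 1122 and 2030 and a ratio of 0.86 at 20 µM. PML was close to the detection threshold, with signals of 90.0, 95.3 and 89.1 against thresholds of 82.5, 79.4 and 80.2, and its 5 µM value was the highest. Its ratios were 0.23 at 5 µM and 0.054 at 20 µM.

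The remaining 3 members were all at least 1.5-fold above DMSO at 20 µM. IFI35, a protein that pairs with NMI, had signals of 527 in DMSO, of 487 at 5 µM and of 859 at 20 µM, and a ratio of 0.92. EPSTI1 had signals of 265, 178 and 369, lowest at 5 µM with a ratio of -0.38 and highest at 20 µM with 0.68. XAF1, an antagonist of the apoptosis inhibitor XIAP, had ratios of 0.11 at 5 µM and 0.78 at 20 µM.

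**Figure D3:**
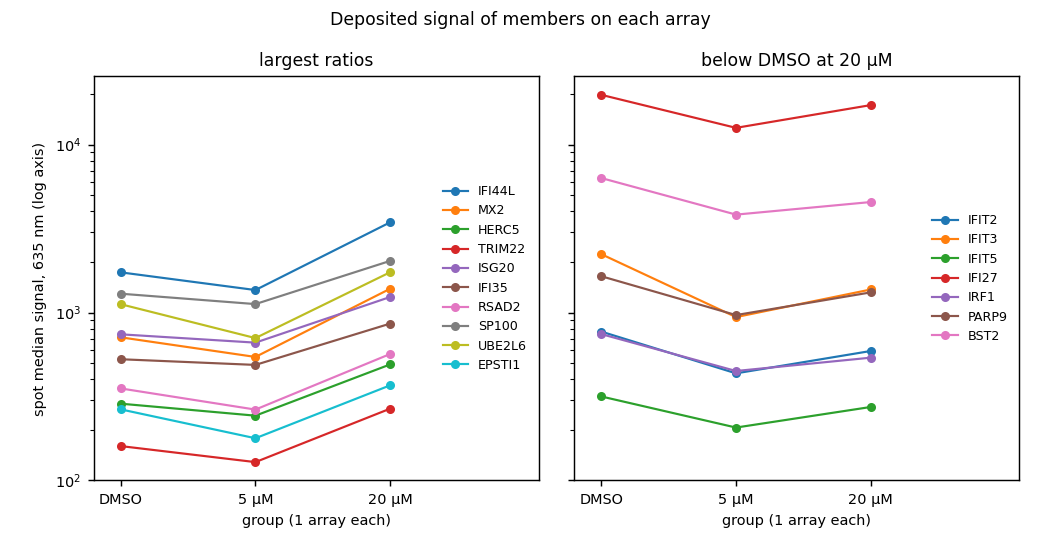
Deposited spot median signal (vertical log axis) on the DMSO, 5 µM and 20 µM arrays, before normalization, for 10 members with large ratios (left) and the 7 members below DMSO at 20 µM after normalization (right); each point is 1 array. In the left panel every line is highest at 20 µM, as for IFI44L at 3447, and in the right panel every line is highest in DMSO, as for IFIT3 at 2227.

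For 7 members a second probe gave a check within the same arrays. The second probe of MX2 gave a ratio of 0.82 at 20 µM where the first gave 1.17, and that of IFIT2 gave -0.42 where the first gave -0.21. CMPK2 gave 0.34 against 0.45 and DTX3L 0.13 against 0.078. SP100 disagreed more, at 0.24 against 0.86. The second probe of OAS3 was near the detection threshold, with a DMSO signal of 89.5, and gave 0.010 against 0.27, and that of PML gave 0.067 against 0.054. All 7 second probes thus had the sign of the first at 20 µM against DMSO, but that of MX2 was below 2-fold. In the other comparisons some signs differed. For 20 against 5 µM, the second probe of OAS3 gave -0.022 where the first gave 0.67, and that of PML gave 0.061 where the first gave -0.18. At 5 µM against DMSO, SP100 gave -0.21 where the first gave 0.15, and OAS3 gave 0.032 where the first gave -0.40.

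Many members lie next to each other in the genome. In the order of protein-coding genes of the human assembly GRCh38.p14, 10 pairs of members were direct neighbours. Neighbours often differed. IFI44L and IFI44 had ratios of 1.19 and 0.17 at 20 µM, and HERC5 and HERC6 of 0.998 and 0.36. The neighbours IFIT1 and IFIT5 lay on opposite sides of 0, at 0.51 and -0.068. OAS1 and OAS3, and SAMD9 and SAMD9L, differed less, at 0.50 and 0.27 and at 0.49 and 0.31.

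Other genes of the pathway, taken from lists by role, were examined next. Of the interferon ligand genes, IFNB1 had signals of 111 in DMSO, of 96.9 at 5 µM and of 121 at 20 µM, and IFNL3 of 94.7, 85.3 and 102. In both, and in IFNL1, 5 µM was lowest and 20 µM highest, as in most members. All of these signals were dim: among 2412 positions without a probe, the highest signal was 134 in DMSO, with 101 at 5 µM and 224 at 20 µM. The ratios of IFNB1, IFNL1 and IFNL3 at 20 µM were 0.25, 0.19 and 0.22, and those at 5 µM -0.11, -0.12 and -0.094. These ratios to DMSO lay within 2 technical SD of 0. For 20 against 5 µM the ratios were 0.36, 0.30 and 0.31, beyond 2 technical SD. The other ligand genes compared at 20 µM, IFNA2, IFNA5, IFNA8, IFNE, IFNK and IFNW1, lay between -0.028 and 0.078. IFNA1 was detected on 0 arrays. IFNG was detected in DMSO, where it was at least 1.01-fold higher than at 20 µM, and at 5 µM, and was not well above background at 20 µM.

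The receptors changed little. IFNAR1 stood at 0.0032 at 20 µM, IFNAR2 at 0.21, IFNLR1 at -0.046, IL10RB at -0.21, IFNGR1 at 0.059 and IFNGR2 at 0.28. Of the kinases and factors below them, JAK1 stood at 0.42, JAK2 at 0.19, TYK2 at -0.11 and STAT3 at 0.16. None of these 10 genes was 1.5-fold apart in any comparison. Among 10 detected genes of nucleic acid sensing, 6 were above 0 at 20 µM and the median was 0.029. RIGI, the sensor of short double-stranded RNA and itself interferon-inducible, had ratios of -0.28 at 5 µM and 0.44 at 20 µM and was the 1 gene of this list at least 1.5-fold higher at 20 than at 5 µM. DHX58 stood at 0.24, TLR3 at 0.013, ZBP1 at 0.10, CGAS at 0.060 and TBK1 at 0.045. MAVS at -0.18, STING1 at -0.17, IKBKE at -0.10 and IRF3 at -0.22 were below DMSO, and AIM2 was detected on 0 arrays. The 6 negative regulators SOCS1, SOCS3, PIAS1, PTPN2, PTPN6 and IRF2 lay between -0.25 for PIAS1 and 0.20 for PTPN2, with a median of 0.0086.

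Further interferon-stimulated genes that were not members were mostly higher at 20 µM than in DMSO or at 5 µM. This list, too, was chosen with earlier results of these data known. Of 36 detected, 30 had ratios above 0 at 20 µM with a median of 0.15, against 52.8% of all genes. At 5 µM 15 were above 0 with a median of -0.057, against 52% of all genes. For 20 against 5 µM 35 were above 0 with a median of 0.23, against 49.5%. None was 2-fold apart in any comparison. EIF2AK2, the RNA-activated kinase PKR, stood at 0.27 at 20 µM, the RNA editing gene ADAR at 0.072, GBP1 at 0.52, the chemokine CXCL10 at 0.34, PLSCR1 at 0.74 and LGALS3BP at -0.12. At 20 µM 4 genes of this list were at least 1.5-fold higher, against 1.94% of all genes. Named after their values were seen, they were LAMP3 at 0.94, TRIM25 at 0.87, PLSCR1 and CXCL11 at 0.62. Of these, LAMP3 and CXCL11 were dim, with DMSO signals of 125 and 199.

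The promoters of the members are shown because most of them carry the sequence that the interferon-activated factors bind. Windows of 250 bases before to 50 after the start of transcription came from RefSeq, assembly GRCh38.p14, with 44 windows for 32 of the 40 members. They were searched on both strands for the ISRE core, GAAA, any 2 bases and GAAA, and for the GAS, TTC, any 3 bases and GAA. The ISRE core was found for 22 of the 32 members, or 68.8%, against 4.12% of 14573 genes on the array with a window. The GAS was found for 11, or 34.4%, against 9.14%. Counted by window, the core was in 26 of the members' 44, or 59.1%, and in 3.57% of all 35116. Of 41 distinct core sites in the members, 6 overlapped a GAS match. A match is a run of letters and no evidence of binding.

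**Figure D4:**
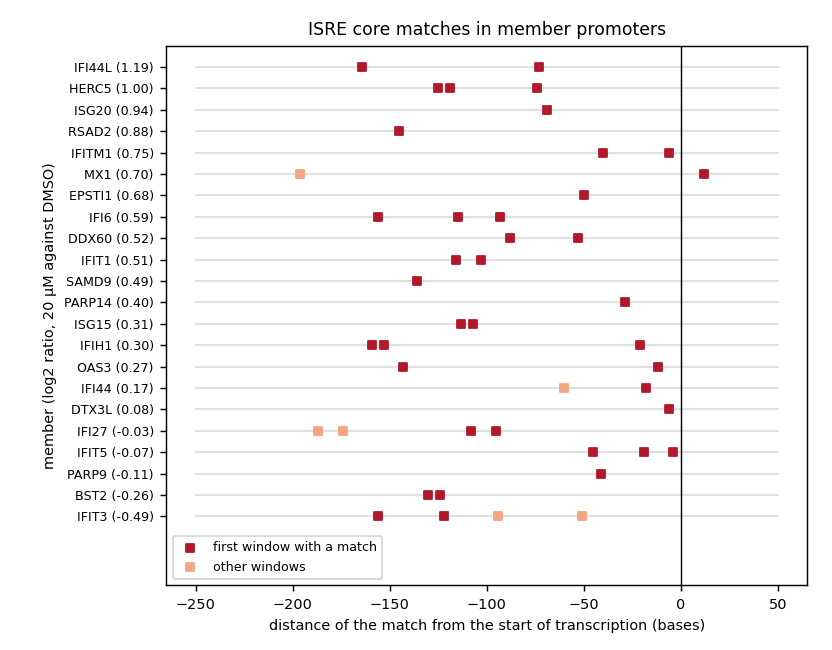
Distance in bases (horizontal axis) from the start of transcription to the ISRE core matches of the 22 members that have any, ordered by log2 ratio at 20 µM against DMSO (in brackets); paler squares are matches counted from another start of the same gene. The left end of each match lies upstream of the start except for 1 of MX1, and members with negative ratios, down to IFIT3 at -0.49, carry them too.

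The windows of 3 members with high ratios, and of the member with the lowest, show these letters. The sequences are the 250 bases before the start, 5′ to 3′ on the strand of the gene, with ISRE core matches of either strand in capitals. IFI44L lies at chr1:78620198-78620447, HERC5 at chr4:88456869-88457118, ISG20 at chr15:88638766-88639015 and IFIT3 at chr10:89327747-89327996, all on the plus strand. MX2 and TRIM22, which had higher ratios than ISG20, are not in the promoter table.
IFI44L: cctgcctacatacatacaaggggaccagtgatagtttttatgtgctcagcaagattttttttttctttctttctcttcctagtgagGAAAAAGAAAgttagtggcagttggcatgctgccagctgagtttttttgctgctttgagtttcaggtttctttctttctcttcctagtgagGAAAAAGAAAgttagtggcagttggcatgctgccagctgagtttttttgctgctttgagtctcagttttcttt
HERC5: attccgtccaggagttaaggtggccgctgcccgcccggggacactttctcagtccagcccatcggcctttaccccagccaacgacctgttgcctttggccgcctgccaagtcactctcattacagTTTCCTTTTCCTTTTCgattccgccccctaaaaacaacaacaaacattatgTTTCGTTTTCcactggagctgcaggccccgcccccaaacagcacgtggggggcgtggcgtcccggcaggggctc
ISG20: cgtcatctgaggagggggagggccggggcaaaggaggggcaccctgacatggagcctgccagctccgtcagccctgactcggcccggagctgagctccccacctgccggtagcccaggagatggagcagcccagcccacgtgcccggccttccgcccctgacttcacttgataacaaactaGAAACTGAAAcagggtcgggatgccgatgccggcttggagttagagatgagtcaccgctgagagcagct
IFIT3: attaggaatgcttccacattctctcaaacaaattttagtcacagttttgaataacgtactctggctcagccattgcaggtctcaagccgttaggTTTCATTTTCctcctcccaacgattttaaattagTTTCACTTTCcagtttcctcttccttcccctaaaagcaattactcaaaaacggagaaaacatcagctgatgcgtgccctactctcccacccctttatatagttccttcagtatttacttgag
In IFI44L both matches lie in a stretch of 85 bases that stands in the window in 2 copies, 91 bases apart. HERC5 holds 3 matches, of which 2 overlap, ISG20 holds 1 and IFIT3 holds 2, all on the minus strand for HERC5 and IFIT3. Another IFIT3 window in the table, at a later start, holds matches as well. PARP9 and DTX3L, transcribed away from each other, share 1 core site.

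Members with and without the core were set side by side, with no test. The 22 members with a match had a median log2 ratio of 0.44 at 20 µM, with 17 above 0, and the 10 without had a median of 0.47, with 9 above 0. Between the doses the medians were 0.58 and 0.61, and all members of both sets were above 0. At 5 µM the medians were -0.21 with a match, where 5 of 22 were above 0, and -0.048 without, where 3 of 10 were. Among genes detected both in DMSO and at 20 µM, the 497 with a match, members included, had a median of 0.013 at 20 µM, with 54.7% above 0, against 0.0055 and 52.1% for the 12148 genes without. UBE2L6, IRF9 and XAF1 were among the members without a match in these windows.

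In the authors' value table, the members' median was 0.49 at 20 µM, -0.27 at 5 µM and 0.70 for 20 against 5 µM. Over the reported values and 8 alternatives, 31 of the 40 members were above DMSO at 20 µM and 7 below it each time, 30 were below it at 5 µM each time, and 39 were higher at 20 than at 5 µM each time. The same counts were not made over all genes, so they do not set the members apart. Most of these alternatives could not turn a sign. Changing the background correction ahead of quantile normalization kept the order of the probes on each array, and the filters left the members' values unchanged. Signs could turn under median scaling, in the authors' value table and, for the 7 members with 2 probes, with the mean of probes. Signs turned for 2 members at 20 µM, IRF9 and DTX3L, and for 8 at 5 µM, which were IFI44L, MX1, HERC5, ISG20, OASL, IFI6, XAF1 and SP100. A further alternative, correction with the background column of the scanner files, is not among the 8. Under it the medians were 0.30, 0.045 and 0.23, and 26, 21 and 25 of the 40 members were above 0. Of the 7278 genes with a DMSO signal above 2 times the detection threshold, 49.5%, 54.3% and 49.5% were above 0.

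**Figure D5:**
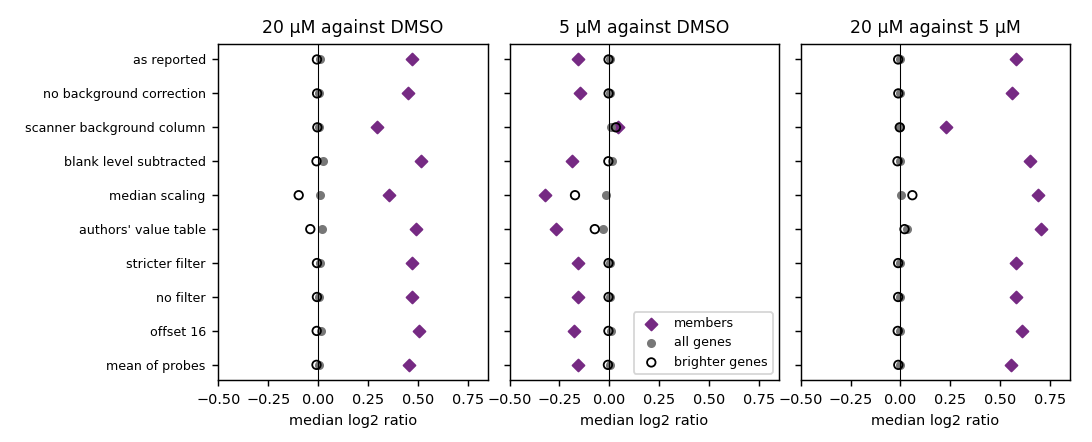
Median log2 ratio (horizontal axis) of the members, of all genes compared and of the 7278 genes with a DMSO signal above 2 times the detection threshold (brighter genes), under the reported processing and 9 alternatives (rows), for each comparison. The members lie at 0.23 or higher in each row for 20 against 5 µM, and at 5 µM they lie below 0 in every row but that of the scanner background column.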

How the data were processed

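HT29 RNA of 3 groups was measured on 1-colour oligonucleotide arrays, 1 per group. Per the file headers, the authors' scanner files hold each spot's median brightness, a linear intensity read at 3 gains, with no background taken off. The authors also deposited a value table of processed intensities; each column was linear in the scanner signal, met 0 at 80.0, 77.3 and 77.6, near the blank level, and had a median of 25. The sources used here do not give the image software.

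Signals of all spots were corrected with normexp (offset 50) in limma 3.58.1 under R 4.3.3, taken to log2 and quantile normalized over 24460 gene probes. The files' background column followed the spot signal (Spearman correlation over spots 0.967 in DMSO, 0.962 at 5 µM and 0.966 at 20 µM), so it was kept as an alternative only. Detection thresholds came from 480 blank and negative control spots without the top and bottom 5%. Symbols came from the platform annotation (21707 probes with 1 symbol, 0 with several, 2753 with none; 21675 matched to RefSeq). Of several probes, that detected on most arrays, then the brightest, stood for the gene. There is no test: counts past 1.5-fold and 2-fold and medians are given beside those of all genes. The number of arrays limits the precision.

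Members and lists were chosen with earlier results of these data known. All members are accounted for; those with the 8 largest ratios at 20 µM, at least 2-fold apart anywhere or below DMSO at 20 µM have their signals given, and pathway genes were named by role. The calculation was tested on simulated data. Python 3.11.15, numpy 2.4.6, pandas 2.3.3 and matplotlib 3.10.9 were used.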

Additional observations from a re-analysis of the deposited data

How the results depend on the processing

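Nothing here measures the spread between cultures, and dim probes limit the ligand genes and PML. Alternatives were run for the members' medians and counts above 0 and at least 2-fold apart. The shares of all genes at least 2-fold apart were not counted under the alternatives. Whether the members' counts below moved more than those shares was not tested.

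For 20 µM against DMSO, the count at least 2-fold higher, 2 as reported, was 8 under the scanner background column, 7 with the blank level subtracted, 5 in the authors' value table, 4 with an offset of 16 and 1 with the mean of a gene's probes. Under the background column the median was 0.30, with 4 members at least 2-fold lower, and MX2 turned to -0.27.

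For 5 µM against DMSO, the median was 0.045 under the background column, the opposite sign, with 21 members above 0 and 2 at least 2-fold apart each way. Median scaling gave -0.32, 2 above 0 and 1 at least 2-fold lower. Of the 7278 brighter genes, 15.3% were then above 0, as was 1 of the 37 members among them. The authors' value table gave -0.27, 6 above 0 and 1 at least 2-fold apart each way. There 36.5% of the brighter genes were above 0, as were 5 of the 37 members. The blank level subtracted gave 1 at least 2-fold higher. The median of the interferon-stimulated genes outside the members was -0.18 under median scaling.

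For 20 against 5 µM, the median was 0.23 under the background column, with 25 above 0, 10 at least 2-fold higher and 5 lower, and 0.70 in the authors' value table. Without background correction 3 were at least 2-fold higher. The scaling affects bright genes most, and the cause of the other shifts was not tested. Filters on dim probes left the members' values as reported. No paired analysis was possible because each group had 1 array, and for the same reason no replicate could be left out.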
